A study of Bos taurus with 12 samples.

Results

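The major histocompatibility complex (MHC) genes of cattle, whose symbols begin with BOLA-, and B2M were followed in the rumen wall of dairy cows moved from forage to grain. The members were all probe sets whose single gene symbol in the array's annotation began with BOLA-, or was CD74 or B2M. A probe set is a group of short oligonucleotides that together report 1 transcript. Where a gene has several, they are counted here from the first on, in the order of the rows of the heat map, which gives their names. The rule gave 24 of 24016 probe sets, which covered 14 of the 9155 named genes. Class II had 20 probe sets for 12 genes, class I had 1 probe set for BOLA-N, and B2M had 3. No probe set of the annotation named CD74, the invariant chain, which was therefore not analysed here.

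The tissue was papillae, the absorptive projections of the rumen lining, collected in the ventral sac. The animals were 4 Holstein dairy cows. The same 4 were sampled at week 0 while on a high forage diet, at week 1 of a grain challenge and at week 3 of it, which gave 12 Affymetrix arrays with 4 per week. Diet and calendar week coincided, and no cow kept on forage throughout was among the samples. The study set out to compare the 3 weekly means. A papilla is a mixed tissue of keratinised epithelium, vessels and immune cells. In such RNA, fewer cells of a type and less RNA per cell cannot be told apart.

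MHC class II molecules are pairs of an alpha and a beta chain that show peptides from the cell's surroundings to helper T cells, and they are made mainly by dendritic cells, macrophages and B cells. The invariant chain CD74 guides the pair through the cell, and the DM pair (BOLA-DMA and BOLA-DMB) exchanges its placeholder peptide for others, which DO, to which BOLA-DOA contributes a chain, restrains. Class I molecules are carried by nearly all nucleated cells, show peptides from inside the cell to cytotoxic T cells, and consist of a heavy chain such as BOLA-N and the light chain B2M. In cattle the beta chain of DR (BOLA-DRB3), the DQ chains and the class I heavy chains vary widely between animals, whereas the DR alpha chain (BOLA-DRA) and B2M vary little.

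The deposited values were log2 values whose median over the 12 arrays was 0 in each probe set. They give differences between arrays and no absolute level, so whether a gene or a cell type's markers were present at all could not be checked, and levels of different genes were not compared. The median of an array ran from -0.05 (week 1, cow 1) to 0.05 (week 1, cow 2). The 18 hybridization control probe sets, which report RNA added at the hybridization step, stood apart on 3 arrays. They averaged 0.49 and 0.48 in cow 1 at weeks 0 and 1 and 0.72 in cow 2 at week 0, and lay between -0.32 and 0.05 elsewhere. No pair of arrays held identical values. The replicates are separate animals.

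The members fell into a group that varied and a group that hardly did. Of the 24 probe sets, 18 (75.0%) spanned at least 0.5 log2 units over the 12 arrays, against 43.7% of all probe sets. Another 5, for BOLA-DQA5, BOLA-DQB, BOLA-DYA, BOLA-DYB and BOLA-DOA, spanned under 0.2, a width that 26.2% of all probe sets had. Probe sets of 1 gene differed in this too. Of the 5 for BOLA-DQB1, the fifth spanned 0.27 and the others between 1.89 and 4.02. BOLA-DYA had its lowest value, -0.07, and its highest, 0.06, on the week 1 arrays of cows 1 and 2, the arrays of lowest and highest median. DYA and DYB form DY, a class II pair known from ruminants. In the gene order of the ARS-UCD2.0 assembly, BOLA-DYA, BOLA-DYB, BOLA-DMB, BOLA-DMA and BOLA-DOA lie in 1 stretch of chromosome 23. BOLA-DQA2, BOLA-DQB, BOLA-DQA5, BOLA-DQB1, BOLA-DRB3 and BOLA-DRA lie in another stretch of it, and B2M is on chromosome 10. Both stretches held genes that varied and genes that hardly did.

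**Figure D1:**
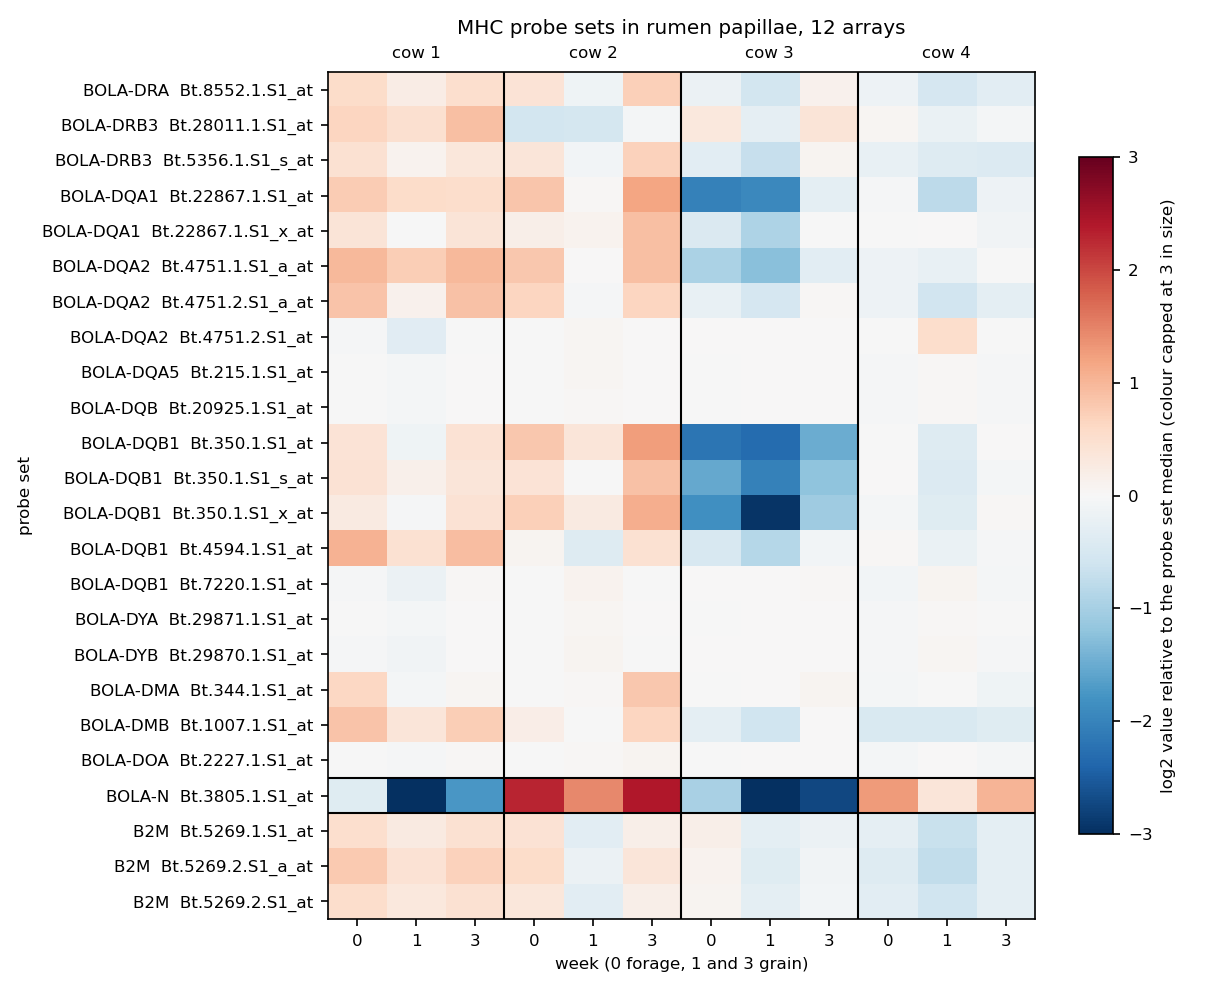
Each row is 1 of the 24 probe sets and each column 1 of the 12 arrays, grouped by cow and ordered by week; colour is the log2 value relative to the probe set's own median, capped at 3 in size. Cow 3 is low in the first 3 BOLA-DQB1 probe sets, BOLA-N is high in cows 2 and 4, and the middle column of each cow (week 1) is the palest red or deepest blue in most probe sets that vary.

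BOLA-DRA, the alpha chain of the DR molecule, was lower at week 1 than at week 0 in all 4 cows and higher again at week 3 in all 4. Its log2 values in cows 1 to 4 were 0.56, 0.41, -0.18 and -0.16 at week 0, then 0.23, -0.13, -0.56 and -0.50 at week 1, and 0.50, 0.72, 0.13 and -0.32 at week 3. Cows 1 and 2 lay above cows 3 and 4 at every week, and the 3 weeks overlapped because the cows were so far apart. The mean was -0.24 ± 0.37 at week 1 and 0.16 ± 0.38 at week 0 (SD, n = 4 cows each). The difference was -0.39 ± 0.27 on the log2 scale (SE, limma), 1.31-fold lower, with an adjusted p of 0.763. Within the cows it ran from -0.54 to -0.33. With the cow as a block, which compares each animal with itself, the unadjusted p was 0.00763 and the adjusted p 0.394.

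BOLA-DRB3, the main beta chain of DR in cattle, was measured by a pair of probe sets. Those with the suffix _s_at can report several related transcripts and those with _x_at can cross-hybridise to others, so a value of the closely related DQ and DR genes need not come from 1 gene alone. The second probe set, an _s_at, had -0.07 in cow 2 at week 1 and 0.36 in the same cow at week 0, and its difference over the 4 cows was -0.33 ± 0.27 (SE), lower in all 4. The first was at -0.25 ± 0.31 (SE) and lower in 3 of 4 cows. The cows stood in a different order in the pair: cow 2 had the highest mean in the second (0.33) and the lowest in the first (-0.38).

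The DQ alpha chains behaved alike in 4 of their 6 probe sets. The second BOLA-DQA2 probe set had 0.86, 0.65, -0.23 and -0.15 at week 0, then 0.12, -0.03, -0.52 and -0.58 at week 1, and 0.87, 0.65, 0.03 and -0.30 at week 3. Each cow was lowest at week 1, and week 1 of cow 1, the highest of that week, still lay within the range of the other weeks. The difference of week 1 from week 0 was -0.54 ± 0.32 (SE), with limma's adjusted p at 0.763, or 0.240 in the fit blocked by cow. The first BOLA-DQA2 probe set was at -0.35 ± 0.52 (SE) and lower in all 4 cows. The pair of BOLA-DQA1 probe sets, of which the second is an _x_at, were at -0.41 ± 0.70 and -0.24 ± 0.28 (SE), each lower in 3 of 4 cows. The third BOLA-DQA2 probe set lay within 0.06 of 0 on 10 arrays and had -0.33 in cow 1 and 0.52 in cow 4 at week 1.

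BOLA-DQB1, the DQ beta chain, was lower at week 1 in all 4 cows in each of the 4 probe sets that varied. In the first of them the values were 0.41, 0.80, -2.20 and -0.02 at week 0, then -0.14, 0.36, -2.31 and -0.38 at week 1, and 0.44, 1.26, -1.49 and 0.02 at week 3. Cow 3 lay more than a log2 unit below every array of the other cows, at all 3 weeks. Differences of week 1 from week 0 in these 4 probe sets ran from -0.54 to -0.37, with SEs of 0.36 to 0.81 that hold the distance between the cows, and adjusted p of 0.763 to 0.819. With the cow as a block the SEs were 0.11 to 0.21, the unadjusted p 0.0071 to 0.037 and the adjusted p 0.39 to 0.60.

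The DM genes differed from each other. BOLA-DMB had 0.86, 0.19, -0.30 and -0.46 at week 0, then 0.36, -0.01, -0.61 and -0.45 at week 1, and 0.74, 0.65, 0.01 and -0.37 at week 3, so that cow 4 hardly moved while the other 3 were lowest at week 1. The difference of week 1 from week 0 was -0.25 ± 0.35 (SE, adjusted p 0.763). BOLA-DMA stayed within 0.14 of 0 on 10 arrays, and its 2 high arrays were week 0 of cow 1 (0.63) and week 3 of cow 2 (0.82).

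BOLA-N, the class I heavy chain, had the widest range of the members, 6.69 log2 units. Its values were -0.36, 2.29, -0.96 and 1.28 at week 0, then -4.30, 1.43, -3.40 and 0.36 at week 1, and -1.75, 2.39, -2.74 and 1.02 at week 3. Cows 2 and 4 were above cows 1 and 3 at every week, and each cow was lowest at week 1. The difference of week 1 from week 0 was -2.03 ± 1.51 (SE), with limma's adjusted p at 0.763, or 0.344 in the fit blocked by cow. Within the cows it ran from -3.93 in cow 1 to -0.85 in cow 2. It is 1 probe set for a variable gene, and its difference rests most on cow 1: without that cow's week 1 array it was -1.09.

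B2M, the light chain that all class I molecules share, was lower at week 1 in all 4 cows in its 3 probe sets. In the second of them the values were 0.79, 0.54, 0.10 and -0.39 at week 0, then 0.43, -0.18, -0.35 and -0.73 at week 1, and 0.69, 0.36, -0.10 and -0.28 at week 3. The cows kept the order 1, 2, 3, 4 from high to low at each week, and the weeks overlapped. The differences of week 1 from week 0 were -0.46 ± 0.24, -0.47 ± 0.32 and -0.38 ± 0.24 (SE), 1.30- to 1.38-fold lower, each with an adjusted p of 0.763. With the cow as a block the adjusted p values were 0.271, 0.201 and 0.296.

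**Figure D2:**
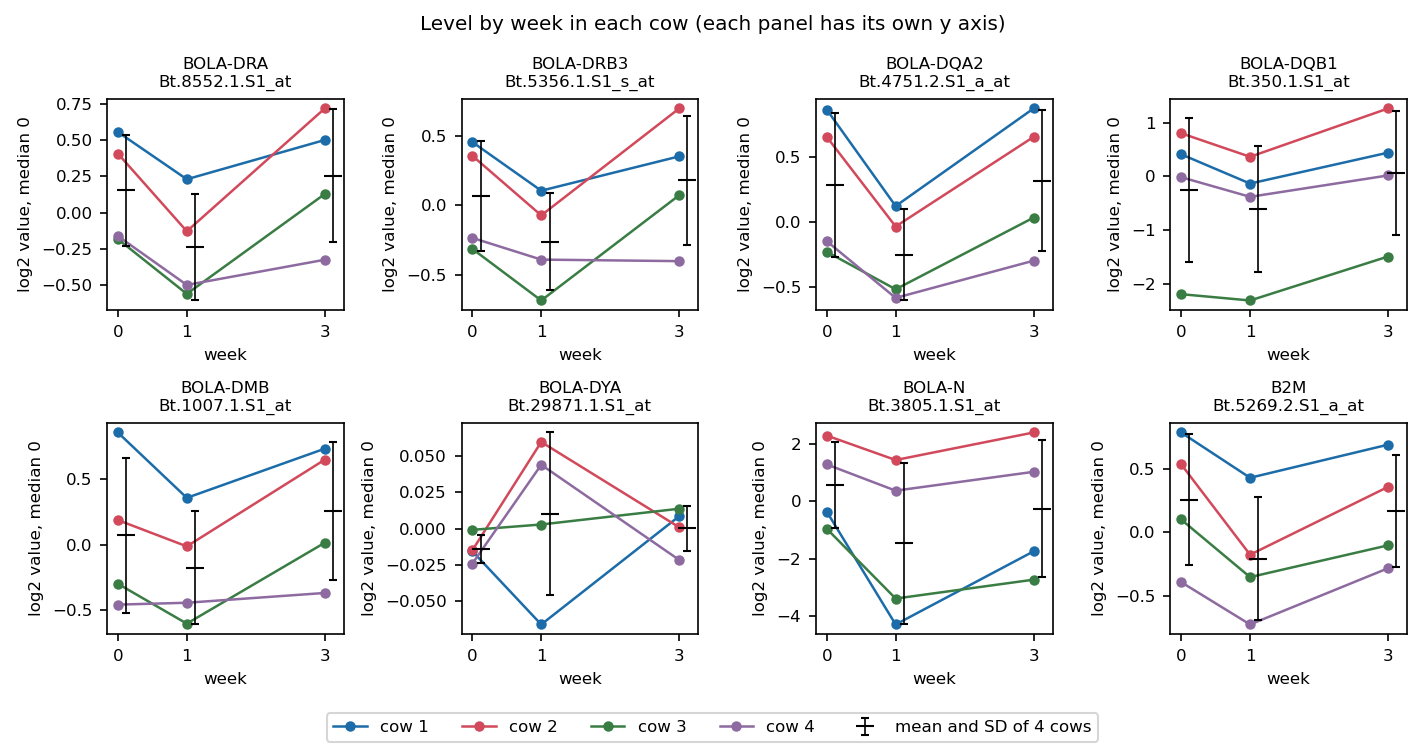
The log2 value of 8 members is plotted against week, with 1 line per cow and black bars for the mean and SD of the 4 cows; each panel has its own y axis. BOLA-DRA, BOLA-DQA2, BOLA-DQB1, BOLA-N and B2M dip at week 1 in every cow, whereas BOLA-DYA stays within 0.07 of 0.

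No member was called between week 1 and week 0 by limma at an adjusted p under 0.05, nor was any of the 24016 probe sets (0.0%), whose lowest adjusted p was 0.0556. At an unadjusted p under 0.05 no member was lower or higher, against 1.87% and 3.28% of all probe sets. With the cow as a block, still no member was called, against 0.00833% of all (2 probe sets). At an unadjusted p under 0.05 in that fit, 12 of the 24 members were lower, against 3.22% of all probe sets, and none was higher, against 4.39%. The 12 were 8 class II probe sets, BOLA-N and the 3 of B2M, and they stand for 6 of the 14 genes.

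The same 12 probe sets were lower at week 1 than at week 0 in all 4 cows, against 3.39% of all probe sets. Among probe sets spanning at least 0.5, which the members more often did, it was 12 of 18, against 6.11%. No member was higher in all 4 cows, against 6.91%. The median difference of the class II probe sets was -0.25, with 13 of 20 lower, against 0.03 and 27.0% lower over all probe sets. The B2M median was -0.46. Dropping single arrays moved the class II median between -0.44 and 0.02, the highest being without week 1 of cow 3, and the B2M median between -0.63 and -0.29. A dropped array leaves its cow in the other weeks alone, so the distance between cows enters these values. Dropping a whole cow kept the class II median between -0.31 and -0.21 and the B2M median between -0.50 and -0.37. Dropping the 3 arrays on which those controls were high, which leaves week 0 with cows 3 and 4 alone, put the class II median at 0.04. With the cow as a block on those 9 arrays it was -0.27. In cows 3 and 4, which had none of those arrays, 13 members were lower at week 1 in both cows, against 17.6% of all probe sets.

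At week 3, 18 of the 24 members (75.0%) lay above week 1, against 33.4% of all probe sets. The log2 difference of week 3 from week 1 was 0.49 ± 0.27 for BOLA-DRA, 0.57 ± 0.32 for the second BOLA-DQA2 probe set and 0.43 ± 0.35 for BOLA-DMB (SE, n = 4 cows). It was between 0.57 and 0.89 in the 4 varying BOLA-DQB1 probe sets, 1.21 ± 1.51 for BOLA-N and 0.29 to 0.37 for B2M. None was called, nor was any probe set of the array (0.0%), and the lowest adjusted p of a member was 0.999, or 0.159 with the cow as a block. At an unadjusted p under 0.05 none was lower or higher, against 2.41% and 2.47% of all. With the block at that p, 16 of 24 members were higher, 12 of them class II, against 4.18% of all probe sets. In all 4 cows 13 members were higher (54.2%), against 5.12% of all probe sets, and 13 of 18 against 9.31% of those spanning at least 0.5.

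The medians of the difference of week 3 from week 1 were 0.44 for class II and 0.30 for B2M, against -0.01 over all probe sets. The size differed between cows. The class II median was 0.73 in cow 2, 0.63 in cow 3, 0.24 in cow 1 and 0.03 in cow 4. This comparison and that of week 1 with week 0 share the week 1 arrays, so low values on those arrays enter both.

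**Figure D3:**
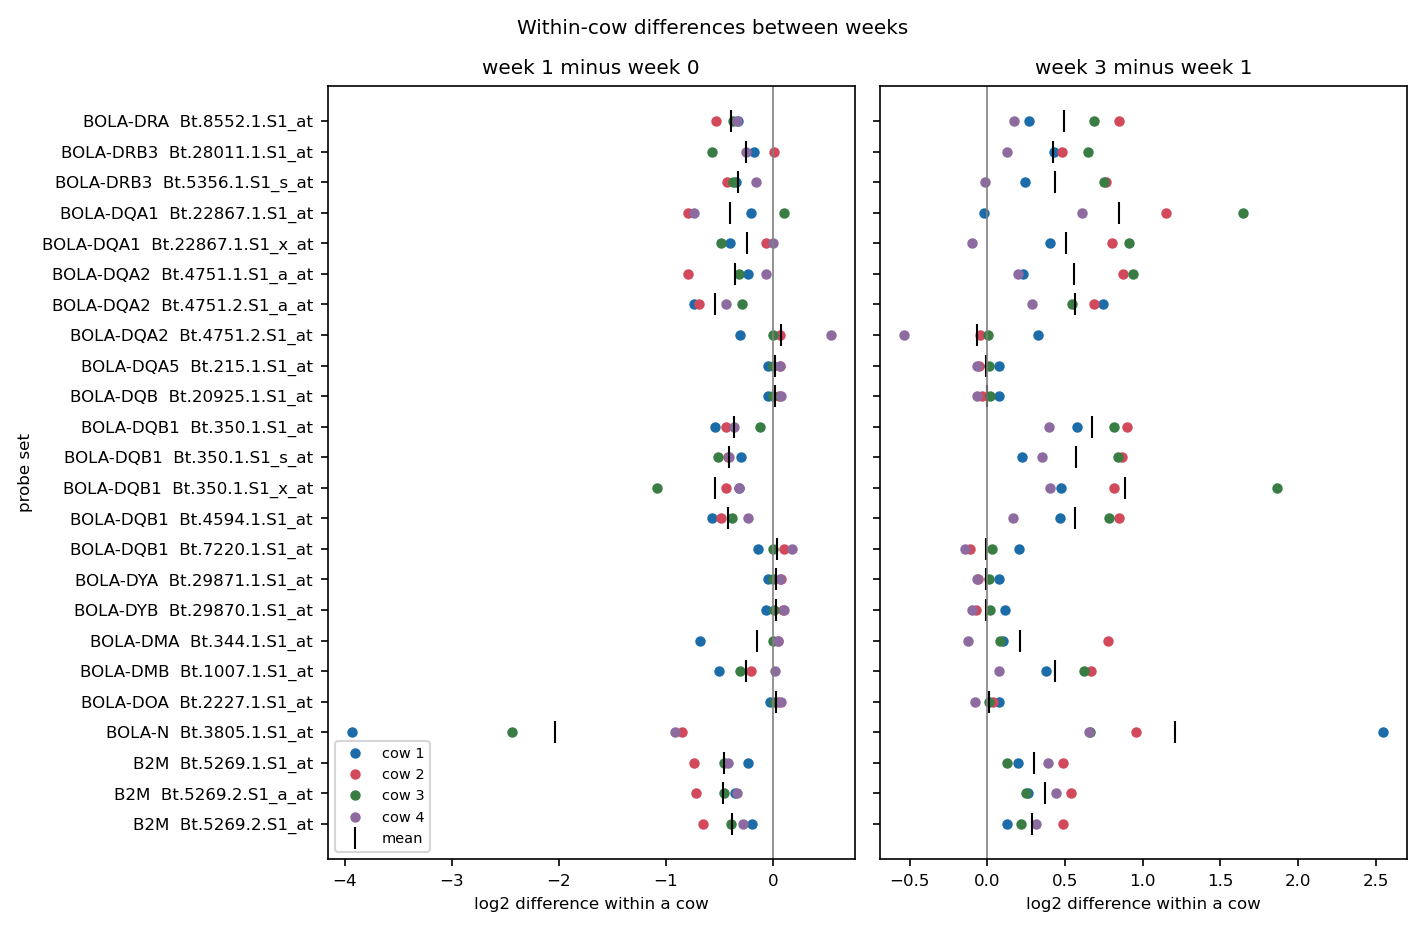
Each dot is the log2 difference within 1 cow, for week 1 minus week 0 on the left and week 3 minus week 1 on the right, by probe set, and the black tick is the mean of the 4 cows. On the left the dots of BOLA-DRA, BOLA-DQB1 (4 probe sets), BOLA-N and B2M all lie below 0, and on the right they all lie above 0.

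At week 3 the values lay above week 0 in 20 of the 24 members (83.3%), against 72.8% of all probe sets, with no call. The log2 differences of week 3 from week 0 were 0.10 ± 0.27 for BOLA-DRA, 0.03 ± 0.32 for the second BOLA-DQA2 probe set and 0.19 ± 0.35 for BOLA-DMB (SE). The first BOLA-DQA1 probe set was at 0.44 ± 0.70 and the first of BOLA-DQB1 at 0.31 ± 0.81 (SE). BOLA-N was at -0.83 ± 1.51 (SE), 1.78-fold lower, and lower in 3 of 4 cows. All 20 class II differences were positive, from 0.01 to 0.44, with a median of 0.11, against 0.02 and 72.8% positive over all probe sets. Cow by cow the class II median was 0.02, 0.32, 0.29 and -0.001 in cows 1 to 4. Among the 14 class II probe sets spanning at least 0.5 it was -0.03, 0.37, 0.36 and -0.08, so the rise rests on cows 2 and 3. The 3 of B2M were negative, as were 27.2% of all, with a median of -0.09, which turned to 0.03 without week 0 of cow 1 and to 0.02 without week 3 of cow 4. With a whole cow left out, the B2M median ran from -0.16 to -0.07. No member and no probe set of the array was called (0.0%). At an unadjusted p under 0.05 no member was lower or higher, against 1.36% and 2.52% of all. Higher in all 4 cows were 6 members (25.0%), against 36.3% of all probe sets, and the first B2M probe set alone was lower in all 4, against 4.63%. Only the first BOLA-DQB1 probe set had an unadjusted p under 0.05 with the block and was higher, 1 of 24 members (4.17%), against 3.93% of all.

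Taking the 3 weeks side by side, week 1 was the lowest in all 4 cows for 11 of the 24 members (45.8%), against 1.47% of all probe sets. They were BOLA-DRA, a pair of BOLA-DQA2, 4 of BOLA-DQB1, BOLA-N and the 3 of B2M. Among probe sets spanning at least 0.5 it was 11 of 18, against 2.76%. No member was highest at week 1 in all 4 cows, against 1.56%. With the arrays quantile-normalised the count was 7 members against 1.83%, and with each array centred on its median it was 14 against 1.65%. The moderated F test of the 3 weeks together, given without the cow as a block, called no member and no probe set (0.0%). The adjusted p of every member in that test was at least 0.939.

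The cows differed more than the weeks in most members that varied. The moderated F test of the cow terms, with week in the model, called 13 of the 24 members at an adjusted p under 0.05, against 1.79% of all probe sets (430 in number). They were BOLA-DRA, the first of BOLA-DRB3, the first and the second of BOLA-DQA2, 4 of BOLA-DQB1, BOLA-DMB, BOLA-N and the 3 of B2M. Among probe sets spanning at least 0.5, 13 of 18 were called, against 4.04%. The 3 arrays of a cow are repeat samples of 1 animal, so the test describes these 4 animals. The median share of variance between cows was 67.7% in the members and 27.0% over all probe sets, while the share between weeks was 12.8% and 12.4%.

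The cow differences were largest in BOLA-N, BOLA-DQB1 and BOLA-DQA1. BOLA-N had cow means of -2.14, 2.04, -2.36 and 0.89 in cows 1 to 4, a spread of 4.40 log2 units, with an adjusted p of 0.0170. The first BOLA-DQB1 probe set had 0.24, 0.81, -2.00 and -0.13, a 7.01-fold spread that held 92.3% of its variance, with an adjusted p of 0.000517. Cow 3 was thus lowest in DQB1 while it lay above cow 4 in BOLA-DRA, DMB and B2M. The fourth DQB1 probe set put cow 1 on top at 0.81 and cow 3 at -0.47, a narrower spread of 1.28. The first BOLA-DQA1 probe set had 0.61, 0.69, -1.42 and -0.33, with an adjusted p of 0.0702 that missed the threshold.

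BOLA-DRA, B2M and BOLA-DMB had narrower spreads and another order of cows. BOLA-DRA had cow means of 0.43, 0.33, -0.20 and -0.33, a 1.69-fold spread with an adjusted p of 0.0465. The second B2M probe set had 0.64, 0.24, -0.12 and -0.47, a 2.15-fold spread with an adjusted p of 0.00345. BOLA-DMB had 0.65, 0.28, -0.30 and -0.43, with an adjusted p of 0.0165. Cow 1 was highest and cow 4 lowest in all 3. The alleles of the cows are not given in the sources used here, and their part in these differences was not tested. The number of members called depended on the animals and arrays in the fit: it was 3 without cow 1, 6 without cow 3 and 1 when the 3 arrays with high hybridization controls were left out. The shares of all probe sets called in these fits, which hold fewer arrays, were 0.421%, 0.974% and 0.271%.

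**Figure D4:**
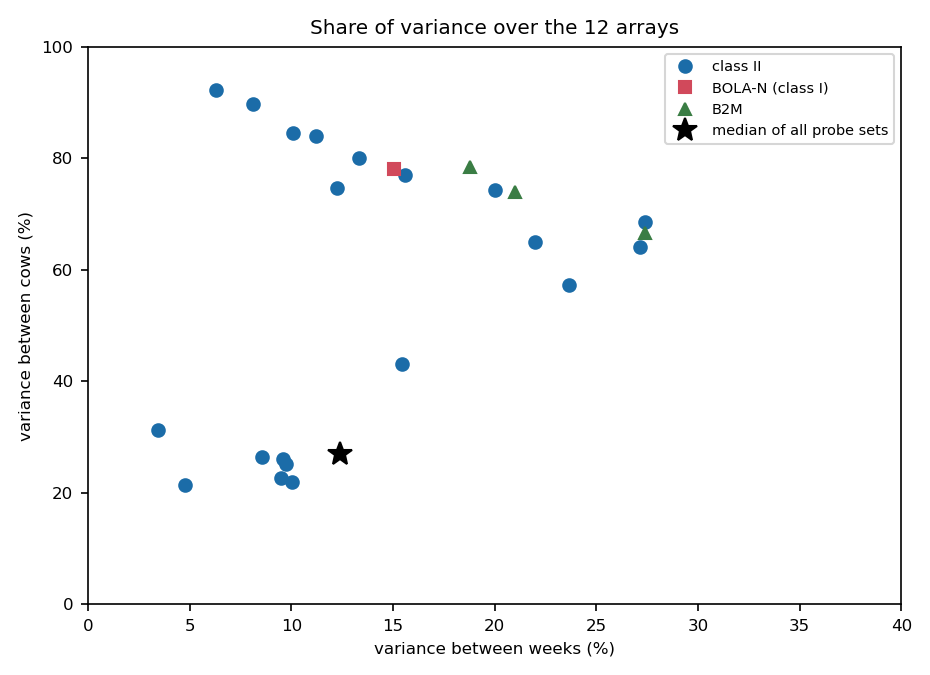
Each point is a member probe set, with the share of its variance between weeks (%) on the x axis and between cows (%) on the y axis; the star is the median of all probe sets, at 12.4% and 27.0%. Of the 18 members that spanned at least 0.5, 16 lie between 57% and 92% on the cow axis, and the flat ones lie between 21% and 43%.

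Genes whose values most resembled those of BOLA-DRA over the 12 arrays were ranked by Pearson's r with the members left out. This r is given as a description, since the arrays share cows and processing. The first 5 named genes were CORO1A (0.95), an actin-binding protein of leukocytes, DENND2D (0.95), LAPTM5 (0.95), a lysosomal protein of blood cells, LCP1 (0.94), an actin-bundling protein of leukocytes, and CTSS (0.93), the protease cathepsin S, which trims the invariant chain. With each cow's mean removed these values were 0.85 to 0.92. Among the members, r with BOLA-DRA was 0.98 for the second probe set of BOLA-DRB3, 0.96 for the second of BOLA-DQA2, 0.94 for BOLA-DMB, 0.88 for the second of B2M, 0.43 for the first of BOLA-DRB3 and 0.16 for BOLA-N. With the cow means removed, the first of BOLA-DRB3 was at 0.82 and BOLA-N at 0.52. Removing them also brought the 4 varying BOLA-DQB1 probe sets to 0.87 to 0.98, where with the cows left in they were at 0.65 to 0.82.

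The genes most like B2M were PSMB8 (0.96), a subunit of the immunoproteasome that cuts proteins into class I peptides, LAPTM5 (0.96), TAP1 (0.95), a subunit of the transporter that carries those peptides to class I, LCP1 (0.95) and CD53 (0.95), a tetraspanin of leukocytes. TAP1 had 1.08, 0.34, 0.18 and -0.70 at week 0, then 0.76, -1.06, -0.85 and -1.97 at week 1, and 0.83, 0.12, -0.12 and -0.87 at week 3. It was lower at week 1 than at week 0 in all 4 cows, at -1.0 ± 0.58 (SE, adjusted p 0.763).

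The other genes of the pathways were counted from lists, each gene by its probe set of largest SD, and none was called in any week comparison with or without the block. Of 14 genes of class I peptide processing and loading, all measured, 12 had lower values at week 1 than at week 0. The median was -0.28, against 0.03 and 27.0% lower over all probe sets. At week 3 against week 1, 12 were higher with a median of 0.23, and at week 3 against week 0, 10 were lower with a median of -0.07. Over all probe sets 33.4% were higher and 27.2% lower in these comparisons. PDIA3, a chaperone of the loading complex, was at -0.20 ± 0.09 at week 1 against week 0, and TAPBPL, an editor of class I peptides, at -0.26 ± 0.14 (SE), each lower in 3 of 4 cows.

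Of 17 genes for class II control and peptide handling, 13 were measured, and CIITA, the master activator of class II genes, was not among them. At week 1 against week 0, 8 were lower with a median of -0.09, against 27.0% of all probe sets. At week 3, 10 were higher than at week 1 and 10 higher than at week 0, with medians of 0.19 and 0.08. Over all probe sets 33.4% and 72.8% were higher. The mean of the list was lowest at week 1 in each cow. LGMN, an endosomal protease that cuts antigens, was at 0.20 ± 0.09 (SE) at week 3 against week 1, higher in 4 of 4 cows. NFYC, a subunit of a factor that binds class II promoters, was at -0.26 ± 0.11 (SE) in that comparison, lower in 3 of 4 cows. Of 18 genes of interferon gamma signalling, the cytokine pathway known to induce MHC genes, 10 were measured. Their median was 0.05 at week 1 and 0.04 at week 3, each against week 0, with 8 and 7 genes higher, where 73.0% and 72.8% of all probe sets were higher. It was -0.00 at week 3 against week 1, with 5 higher, against 33.4% of all probe sets. CXCL10, a chemokine named for its induction by interferon, was at 0.05 ± 0.03 (SE) at week 1 against week 0.

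Markers of the cells that could carry MHC moved in part with the members. Of 7 measured pan-leukocyte genes, 6 were below week 0 at week 1 (median -0.51), against 27.0% of all probe sets. That median was the value of PTPRC, and 2 of its 3 probe sets went the other way. At week 3 all 7 lay above week 1 and above week 0 (medians 0.68 and 0.28), against 33.4% and 72.8% of all probe sets. Their mean per array ran from -0.55 to 1.11 at week 0, from -1.15 to 0.56 at week 1 and from -0.44 to 1.02 at week 3. Cow by cow it was lowest at week 1, and the cows stood in the order 1, 2, 3, 4 from high to low at weeks 0 and 1, as in the second B2M probe set. CORO1A was at -0.89 ± 0.64, LCP1 at -0.65 ± 0.44 and CD53 at -1.17 ± 0.98 (SE) at week 1 against week 0, each lower in all 4 cows. The part of leukocyte content in the MHC differences was not tested.

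Markers of the single cell types were less uniform. Of 11 measured monocyte, macrophage and dendritic cell genes, 5 were below week 0 at week 1 (median 0.03). At week 3, 7 lay above week 1 (median 0.06) and 8 above week 0 (median 0.03). Over all probe sets 27.0% were lower at week 1 than at week 0. At week 3, 33.4% of them lay above week 1 and 72.8% above week 0. The mean of the list was lower at week 1 than at week 0 in 3 of 4 cows. It ran from -0.35 to 0.41 at week 0, -0.23 to 0.04 at week 1 and -0.16 to 0.36 at week 3. CSF1R, the receptor for the macrophage growth factor, was at -0.38 ± 0.24 at week 1 against week 0 and at 0.67 ± 0.24 at week 3 against week 1, and CD14, a monocyte receptor, at 1.43 ± 0.46 at week 3 against week 1 (SE). At week 3 against week 0, CD14 was at 1.10 ± 0.46 and AIF1 at 1.08 ± 0.49 (SE), each higher in all 4 cows. TYROBP was at -0.55 ± 0.31 at week 1 and at -0.45 ± 0.31 at week 3 (SE), both against week 0. CD83 was at 0.06 ± 0.03 (SE) at week 1 against week 0, higher in all 4 cows. Of 5 measured B cell genes, 2 were lower at week 1 than at week 0 (median 0.02), 4 were higher at week 3 than at week 0 (0.03) and 2 were higher at week 3 than at week 1 (-0.01). The mean of the B cell list was lower at week 1 than at week 0 in all 4 cows, and JCHAIN, which joins antibody units, was at -0.63 ± 0.73 (SE), lower in all 4. Its remaining measured genes lay between -0.09 and 0.04 in that comparison, each higher in 3 of 4 cows, so the fall of the mean rests mostly on JCHAIN. The means ran from -0.35 to 0.24 at week 0, -0.41 to 0.02 at week 1 and -0.07 to 0.21 at week 3.

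The mean of the T and NK cell list was lower at week 1 than at week 0 in only 1 of 4 cows. Of 13 measured genes of that list, 2 were below week 0 at week 1 and 11 above (median 0.03), against 27.0% below over all probe sets. At week 3, 11 lay above week 0 (median 0.02) and 10 below week 1 (median -0.01), against 72.8% and 66.6% of all probe sets. CD3G and CD3D, chains of the T cell receptor complex, were at 1.63 ± 0.49 and 1.12 ± 0.48 (SE) at week 1 against week 0, higher in all 4 cows, with an adjusted p of 0.763. CD3E, another chain of that complex, was at -0.46 ± 0.52 (SE), lower in 3 of 4 cows. CD2 was at -0.12 ± 0.08 (SE), lower in all 4 cows, though 2 of its 3 probe sets went the other way. The remaining genes of the list lay between 0.02 and 0.05, near the median of 0.03 over all probe sets. The rise of the list mean thus rests mostly on CD3G and CD3D. At week 3 against week 1, CD3E was at 0.79 ± 0.52 and CD3G at -1.37 ± 0.49 (SE). The mean of the list ran from -0.25 to 0.10 at week 0, -0.04 to 0.28 at week 1 and -0.06 to 0.24 at week 3. Of 8 measured keratinocyte genes, 7 were lower at week 1 than at week 0 (median -0.24), 7 were lower at week 3 than at week 0 (-0.10) and 6 were lower at week 3 than at week 1 (-0.02). Over all probe sets 27.0%, 27.2% and 66.6% were lower in these comparisons. Their means ran from 0.06 to 0.30 at week 0, -0.19 to 0.15 at week 1 and -0.27 to -0.10 at week 3. SFN stood at -0.34 ± 0.12 and KRT5, which basal epithelial cells make, at -0.33 ± 0.11 (SE) at week 1 against week 0. DSG1 was at -2.37 ± 0.72 (SE) at week 3 against week 0, lower in all 4 cows. The part of these cell types in the MHC differences was not tested.

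**Figure D5:**
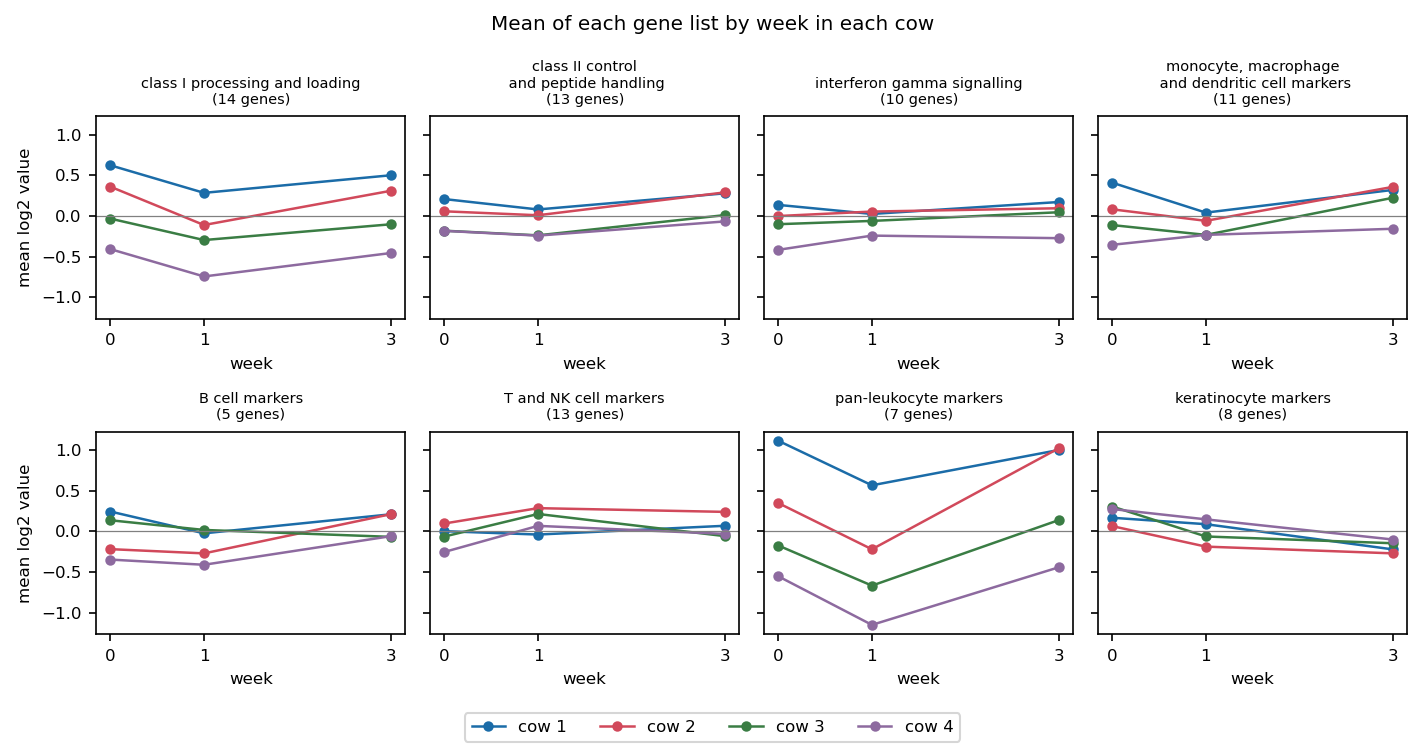
Each panel plots the mean log2 value of the measured genes of 1 list against week, with 1 line per cow, on a shared y axis. The pan-leukocyte, class I processing and class II control lists are lowest at week 1 in every cow, whereas the interferon gamma and T and NK cell lists are not.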

How the data were processed

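The authors deposited GCRMA values, per the submitters' processing notes. GCRMA corrects Affymetrix intensities for background by base content, normalizes the arrays and returns log2 values; its version is not stated, and base 2 was assumed for the deposited log2 values. Each probe set has a median of 0 over the 12 arrays. Of 24016 probe sets (112 controls left out), 13292 named 1 gene, 86 several and 10638 none. Of the 24 members, 21 had a gene ID in the ARS-UCD2.0 gene table, used for names and order only.

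Weeks were compared with limma 3.58.1 in R 4.3.3 (lmFit and eBayes, two-sided), with a mean per week over all 12 arrays, with Benjamini-Hochberg adjustment across the whole table and a threshold of 0.05. The F test of cows had week as a covariate. The week fit without a block and the F test of cows were tested on simulated data with independent noise on each array. The fit blocked by cow was not tested in that way. The same animals were sampled each week: deviations from the weekly means correlated at 0.303 to 0.690 within a cow (12 pairs) and -0.435 to 0.0662 between cows (36 pairs). Each comparison between weeks was therefore repeated with cow as a blocking term. The F test of the weeks together is given without that term.

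All members are named. From each list up to 3 genes of lowest p in a comparison could be named, and for BOLA-DRA and B2M the 5 most similar genes. Members and lists were chosen with earlier results of these data known. Alternatives were the block, quantile normalization, centring of arrays, array weights, leaving out arrays or cows, and leaving out the 3 arrays of high hybridization controls. The last was also run with the block, and cows 3 and 4 were taken alone, after the data were seen. The number of arrays, 12, limits the precision.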

Additional observations from a re-analysis of the deposited data

Results flagged for a closer look

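The values of each member at each week were checked for a cow that lay far from the other 3, and 3 of 72 groups of 4 arrays had one. Chance gives about 1 in 20 groups. The second BOLA-DQA1 probe set had -0.918 in cow 3 at week 1, with the other cows between -0.009 and 0.099. BOLA-DMA had 0.632 in cow 1 at week 0, with the other cows between -0.057 and -0.002. BOLA-DOA had -0.058 in cow 4 at week 0, with the other cows at -0.006 to -0.005, a gap within the small scatter of that probe set. The causes were not tested.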

How the results depend on the processing

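No member was called in a week comparison with the cow as a replicate block, with quantile normalization, with arrays centred on their medians, or with any array or cow left out. With array weights, which gave the week 1 array of cow 1 a weight of 0.0618, 8 members were called at week 1 against week 0. The share of all probe sets called in that fit was 41.5% (9970). Of the 8, 2 of B2M were lower and 6 class II probe sets were higher by 0.05 to 0.34. The 6 were BOLA-DQA5, BOLA-DQB, BOLA-DYA, BOLA-DYB, the fifth BOLA-DQB1 and the third BOLA-DQA2, which were flat or near 0 on most arrays. Probe sets called over the whole array, 0 otherwise, were 2 with the replicate block, 5 when the 3 arrays with high hybridization controls were dropped and 1 when the block was added to that, at week 1 against week 0. At week 3 against week 0 they were 2 with quantile normalization, 6 without the 3 arrays and 7 with weights, and at week 3 against week 1 they were 12 without the 3 arrays and 97 with weights. Leaving out arrays or cows gave 0 to 45, 0 to 2 and 0 to 38 in the 3 comparisons. Between cows, members called were 8 with quantile normalization, 1 without the 3 arrays, and 3 to 12 with arrays or cows left out. The shares of all probe sets called in these fits were 1.23%, 0.271% and 0.421% to 1.56%. The probe sets called between cows, 430 in all, were 259 with centring, 65 without the 3 arrays, 1228 with weights and 101 to 375 in the leave-one-out fits.

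Median differences also moved. Without the 3 arrays, class II was at 0.042 at week 1 and 0.44 at week 3, both against week 0, and B2M was at 0.18 at week 3 against week 0 and 0.47 at week 3 against week 1, where BOLA-N was at 0.26. That exclusion leaves week 0 with cows 3 and 4, and with the replicate block on the same arrays these values were -0.27, 0.14, -0.031, 0.34 and 0.76. With weights, week 1 against week 0 gave -0.50 for class II, -0.33 for BOLA-N and -0.80 for B2M, and week 3 against week 1 gave -0.49 for BOLA-N and 0.72 for B2M. With arrays or cows left out the ranges at week 1 against week 0 were -0.44 to 0.022 for class II, -3.0 to -1.09 for BOLA-N and -0.63 to -0.29 for B2M. At week 3 against week 0 they were 0.02 to 0.25, -1.72 to -0.01 and -0.31 to 0.028, and at week 3 against week 1 they were 0.18 to 0.61, 0.26 to 2.17 and 0.16 to 0.47. When only whole cows were left out, class II at week 1 against week 0 ran from -0.31 to -0.21 and B2M from -0.50 to -0.37. With a cow left out, members lowest at week 1 in every remaining cow were 11 to 14 (2.42% to 5.44% of all probe sets), those lower at week 1 than at week 0 were 12 to 14 (5.19% to 8.84%), and those higher at week 3 than at week 1 were 13 to 17 (7.32% to 12.9%). With quantile normalization they were 7 (1.83%), 12 (8.52%) and 10 (6.62%). The cause of the shifts under weights and quantile normalization was not tested.

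Arrays number 12, values hold no level, and signal over background cannot be judged, so a flat probe set may be one without signal.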

Other observations

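Another 23 probe sets carried an MHC symbol without meeting the rule, and 17 of them list more than 1 symbol. Most report class I heavy chains. Of the 23, 14 spanned at least 0.5 log2 units and 8 under 0.2, against 43.7% and 26.2% of all probe sets. Lower at week 1 than at week 0 in all 4 cows were 5, against 3.39%. The moderated F test called 7 between cows, against 1.79%. One probe set that names BOLA-N and JSP.1 had the widest range of them, 11.2. Cow 2 was at -7.81, -7.27 and -8.02 at weeks 0, 1 and 3, against -0.86 to 3.20 in the other cows, with an adjusted p of 0.000122 for cows. In the probe set naming BOLA-N alone the same cow was the highest of the 4. One that names LOC100848815 and BOLA-DQA1 had 2.93, 1.22 and 5.66 in cow 3 at weeks 0, 1 and 3, and lay within 0.06 of 0 on the other 9 arrays.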
